A study of Mus musculus with 16 samples.

Results

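The PAX family comprises 9 transcription factor genes in the mouse, *Pax1* to *Pax9*, and all 9 were analysed here among 21851 protein-coding genes. They were chosen by name in the GENCODE M21 annotation of the mouse genome (build mm10). Each gene was examined over its gene body with 5 kb on either side, called its window below, and over its promoters, taken as the 1 kb before and the 1 kb after each protein-coding start site. Hematopoietic stem cells (HSCs), which give rise to all blood cells, had been sorted from the bone marrow of C57BL/6 mice aged 10 weeks (Young) or 20 months (Aged). The sort kept c-kit+, Sca-1+ and CD150+ cells that lacked lineage markers, CD34, CD48 and Flt3. Chromatin immunoprecipitation sequencing (ChIP-seq) was performed for H3K4me3, H3K27me3 and H2AK119ub1. The labels name 2 libraries for each mark and age, but the peaks used here were 1 pooled list for each mark and age. The spread between libraries could therefore not be measured, no difference between ages or genes was tested, and every comparison below describes the 6 lists.

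PAX proteins bind DNA through a paired domain and specify organs and cell types in the embryo. *Pax1* and *Pax9* (class I) act in the sclerotome, pharyngeal pouches and thymus. *Pax2*, *Pax5* and *Pax8* (class II) serve the kidney, the B cell and the thyroid. *Pax3* and *Pax7* (class III) mark neural crest and muscle progenitors, and *Pax4* and *Pax6* (class IV) act in the endocrine pancreas and, for *Pax6*, in the eye and brain. *Pax5* is the only member with an established role in blood: it commits lymphoid progenitors to the B lineage. H3K4me3 marks active or poised promoters. H3K27me3 is deposited by Polycomb repressive complex 2 and H2AK119ub1 by Polycomb repressive complex 1, and both are known at silent developmental genes. A promoter with H3K4me3 and H3K27me3 together is called bivalent.

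Promoter sequences are printed for *Pax5* and for *Pax2*, *Pax6* and *Pax8*, a bivalent class II member, a bivalent member of another class and a class II member with H3K27me3 but no H3K4me3 peak. Each is the stretch of 250 bases directly before a RefSeq start site (GRCm38.p6, the assembly of mm10), written 5′ to 3′ on the strand of the gene, with every CpG dinucleotide in capitals. None of the 4 stretches overlapped an annotated exon. RefSeq promoters were found for 7 of the 9 members; *Pax3* and *Pax4* had no entry. The table held 3 start sites for *Pax2* and 2 for *Pax6*, and the stretch shown is the second of *Pax2*, the closest before its first GENCODE start site, and the first of *Pax6*, which its H3K4me3 peak overlapped.
Pax5, chr4:44710695-44710944, minus strand: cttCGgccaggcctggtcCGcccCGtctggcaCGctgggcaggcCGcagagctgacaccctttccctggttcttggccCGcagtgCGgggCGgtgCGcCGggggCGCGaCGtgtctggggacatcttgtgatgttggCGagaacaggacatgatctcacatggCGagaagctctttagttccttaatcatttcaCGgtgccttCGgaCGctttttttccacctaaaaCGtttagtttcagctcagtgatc
Pax2, chr19:44755502-44755751, plus strand: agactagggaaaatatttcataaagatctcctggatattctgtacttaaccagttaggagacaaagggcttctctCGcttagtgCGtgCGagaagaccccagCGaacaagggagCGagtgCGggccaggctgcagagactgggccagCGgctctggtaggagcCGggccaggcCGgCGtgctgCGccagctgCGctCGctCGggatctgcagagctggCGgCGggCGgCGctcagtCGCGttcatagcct
Pax6, chr2:105668646-105668895, plus strand: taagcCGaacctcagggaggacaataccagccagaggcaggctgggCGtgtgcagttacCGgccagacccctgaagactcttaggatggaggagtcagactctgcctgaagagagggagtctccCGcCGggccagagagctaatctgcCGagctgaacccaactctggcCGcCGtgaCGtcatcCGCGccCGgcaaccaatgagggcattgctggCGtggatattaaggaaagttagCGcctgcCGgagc
Pax8, chr2:24475600-24475849, minus strand: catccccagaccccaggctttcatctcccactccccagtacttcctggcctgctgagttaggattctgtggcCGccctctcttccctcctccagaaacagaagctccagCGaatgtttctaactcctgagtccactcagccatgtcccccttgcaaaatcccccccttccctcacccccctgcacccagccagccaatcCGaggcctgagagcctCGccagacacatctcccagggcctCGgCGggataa
The *Pax5* stretch held 19 CpG, the *Pax2* stretch 20, the *Pax6* stretch 15 and the *Pax8* stretch 6. The median over the 32851 promoters of the RefSeq table was 6, and 19.7% of them held at least as many CpG as *Pax5*. *Pax2* was matched or exceeded by 17.9% of promoters, *Pax6* by 27.3% and *Pax8* by 50.4%. In Young HSCs the H3K27me3 list covered all 250 bases at *Pax2*, *Pax6* and *Pax8* but only 40 bases at *Pax5*. In Aged HSCs it covered 250 bases at *Pax2*, 109 at *Pax5*, 105 at *Pax8* and 18 at *Pax6*. The stretches not shown differed from these: the second of *Pax6* was covered over all 250 bases in Aged HSCs, the third of *Pax2* over 50, and the first of *Pax2* over 250 with only 5 CpG.

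H3K27me3 was the mark shared by the family. *Pax5* had a promoter region of it at both ages, although its coverage in Aged HSCs was low for the family, as given below. In Young HSCs all 9 members had a promoter H3K27me3 region, against a background of 16% of protein-coding genes, and in Aged HSCs 8 of 9 did, against 8.24%. The exception in Aged HSCs was *Pax4*. By start sites, H3K27me3 regions lay at all 25 protein-coding start sites of the family in the Young list and at 22 in the Aged list, which lacked the 3 sites of *Pax4*. This restates the gene count, since sites of a gene are not separate units: 8 belong to *Pax6*, and the 3 of *Pax5* lie within 79 bp. No share over all start sites was taken. Anywhere in the window, a region was listed for 9 members in Young HSCs (27.8% of all genes) and for 8 in Aged HSCs (16.5%).

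No H3K4me3 peak was listed for *Pax5* at either age. In Young HSCs 3 of 9 members, *Pax2*, *Pax3* and *Pax6*, had a promoter peak, a share that was close to the 33.8% of all genes. In Aged HSCs none did, against 23.3% of all genes. Over the windows the counts were again 3 and 0 members, against 40.6% and 29% of genes. All 3 members with H3K4me3 in Young HSCs also carried H3K27me3 at a promoter, so the bivalent count was 3 of 9 against 2.96% of genes. With H3K27me3 at all 9 members, this count repeated the H3K4me3 count. Of the 3506 genes with promoter H3K27me3 in the Young list, 646 were bivalent. The bivalent count was 0 of 9 in Aged HSCs, against 0.792%. The smaller number of peaks in the Aged H3K4me3 list (6723, against 11371 in the Young list) moves with this difference. With both lists held to the same number of peaks, 2 members (*Pax2* and *Pax3*) had a promoter peak in Young HSCs and still none in Aged HSCs. Shares of all genes were not taken at that setting.

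With all listed regions, H2AK119ub1 went the opposite way between the lists. A promoter region was listed for 4 members in Young HSCs, *Pax1*, *Pax7*, *Pax8* and *Pax9*, against 1.91% of genes. In Aged HSCs 8 members had one, every member but *Pax4*, against 14%. *Pax5* was among the 4 members with a promoter region in the Aged list only, beside *Pax2*, *Pax3* and *Pax6*. The Aged region at *Pax5* began 736 bp before the first start site and was no longer counted with promoters of 500 bp on either side. Over the windows 8 members were listed at each age, against 5.99% of genes in the Young list and 29% in the Aged list, so the windows of *Pax2*, *Pax3*, *Pax5* and *Pax6* already held H2AK119ub1 away from their promoters in Young HSCs. H3K27me3 and H2AK119ub1 were both listed at promoters of 4 members in Young HSCs (1.65% of genes) and 8 in Aged HSCs (4.99%). As in the bivalent count, each mark had to lie at any promoter of the gene, and the regions did not have to overlap. At *Pax5* the Aged promoter regions of H3K27me3 (chr4:44709911-44710803) and H2AK119ub1 (chr4:44711223-44711844) did not overlap. The Aged H2AK119ub1 list held 17768 regions and the Young list 2593. With both held to the same number, the Aged promoter count was 3 (*Pax6*, *Pax7* and *Pax9*), without *Pax5*, and the Young count stayed at 4. The direction of the promoter count was then turned around, so it depended on how many regions were kept. Here too, shares of all genes were not taken.

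The lengths covered separated the members more than the counts did. H3K27me3 covered 51.1 kb of the *Pax5* window in Young HSCs and 10.3 kb in Aged HSCs. *Pax2*, a regulator of kidney and optic nerve development, had the longest coverage at both ages, with 64.5 kb and 26.9 kb. *Pax3* had 51.6 kb and 18.96 kb. *Pax7*, which maintains muscle satellite cells, had 43.8 kb and 18.4 kb. These 4 members have the longest windows, and *Pax5* had rank 3 of the 9 in the Young list and rank 7 in the Aged list.

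*Pax6* had 28.9 kb in Young HSCs and 21.3 kb in Aged HSCs, *Pax1* 27.8 kb and 16.0 kb, and *Pax9* 26.4 kb and 13.4 kb. Aged coverage was the largest share of Young coverage at these 3 compact loci. *Pax8*, needed for the thyroid follicular cell, had 8.73 kb and 2.41 kb. *Pax4*, needed for pancreatic beta cells, had 2.99 kb in Young HSCs and 0 in Aged HSCs. Among all 21851 genes, the Young coverage of *Pax2* ranked 13, that of *Pax3* 27 and that of *Pax5* 30, whereas *Pax4* ranked 2388.

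**Figure D1:**
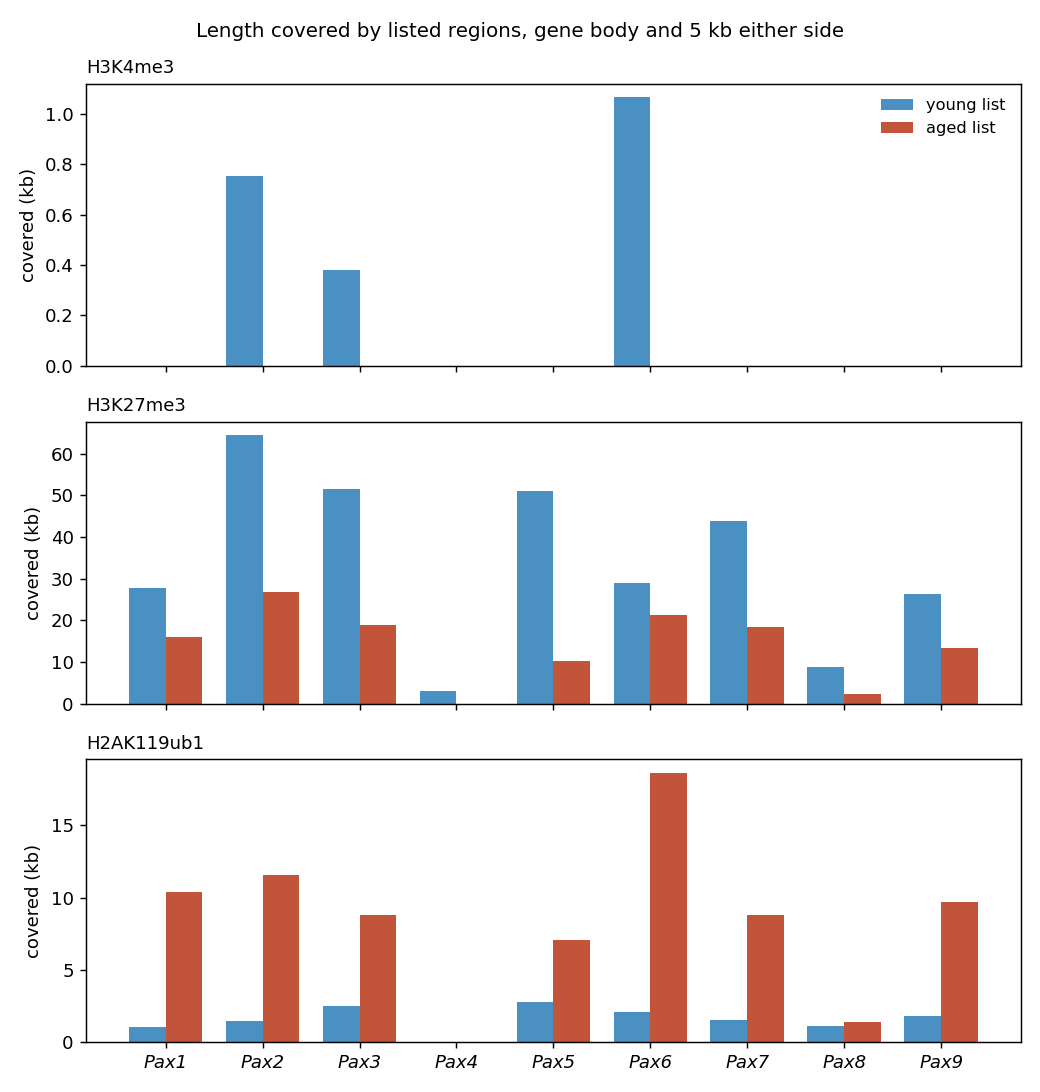
Length in kb covered by listed regions in the window of each PAX gene (gene body and 5 kb either side), by mark, in the Young (blue) and Aged (red) pooled lists. H3K27me3 bars are shorter in the Aged list for every member, H2AK119ub1 bars are longer for the 8 members that have any, and H3K4me3 appears only for Pax2, Pax3 and Pax6 in the Young list. The vertical scale differs between marks.

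As a share of its window, H3K27me3 coverage of *Pax5* was low for the family. It covered 26.1% of the window in Young HSCs, where the other 8 ranged from 13.4% to 85.0% with a median of 57.9%. In Aged HSCs it covered 5.25%, where the others ranged from 0 to 55.5% with a median of 23.6%. *Pax5* had rank 7 of the 9 by this measure at both ages, above *Pax8* and *Pax4*. The *Pax5* window is also the longest of the family, at 195.7 kb, and most of it is intron. *Pax5* held the most separate regions in Young HSCs, 50, against 3 to 39 in the other members, and these were short, with a median of 428 bp.

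Near the start of the gene the share was not low. From the upstream edge of the window to 20 kb after the first protein-coding start site, a stretch of 25.0 kb except at *Pax1* (28.1 kb) and *Pax4* (its whole window of 17.0 kb), the Young list covered 90.2% of *Pax5*, below *Pax6* (99.0%) and *Pax9* (92.1%) and above the remaining 6 members. In the Aged list it covered 28.8% of this stretch, against 76.0% for *Pax6*, 53.5% for *Pax9*, 54.0% for *Pax3*, 54.3% for *Pax7*, 57.0% for *Pax1* and 32.9% for *Pax2*. Only *Pax8* (9.62%) and *Pax4* (0) were lower. Beyond 20 kb, H3K27me3 covered 16.7% of *Pax5* in the Young list and 1.80% in the Aged list, against 37.3% and 10.4% for the other members summed. The other members varied there, from 0 at *Pax8* to 71.2% at *Pax2* in the Young list, and *Pax1*, *Pax8* and *Pax9* had 0 in the Aged list. The lower share of the whole *Pax5* window in Young HSCs was therefore seen beyond 20 kb only, whereas that in Aged HSCs was seen beside the start site too.

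Aged coverage as a percentage of Young coverage put *Pax5* below most of the family. For H3K27me3 it was 20.1% at *Pax5* and 46.1% over the other 8 members summed. By member it was 73.7% at *Pax6*, 57.6% at *Pax1*, 50.6% at *Pax9*, 42.1% at *Pax7*, 41.7% at *Pax2*, 36.8% at *Pax3*, 27.6% at *Pax8* and 0 at *Pax4*. Over the whole lists the covered length in Aged HSCs was 24.4% of that in Young HSCs, so *Pax5* lay just under the whole-list value and 7 members lay above it. Among the 1561 genes with at least 5 kb of Young coverage the median was 23.4%, with quartiles of 13.7% and 38.3%. *Pax6* ranked 16 of these genes from the highest, *Pax1* 120, *Pax9* 195, *Pax7* 326, *Pax2* 330, *Pax3* 419, *Pax8* 660 and *Pax5* 909. *Pax5* was thus within the quartiles of all such genes and *Pax6* was far above them. With both lists held to the same number of regions, the value was 32.2% at *Pax5* and 55.4% over the other 8. With peaks of a −log10 q of at least 2 it was 9.66% and 34.3%. *Pax5* stayed lower than the other 8 summed in every alternative except a −log10 q of at least 4, where no Aged region remained in any member window.

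**Figure D2:**
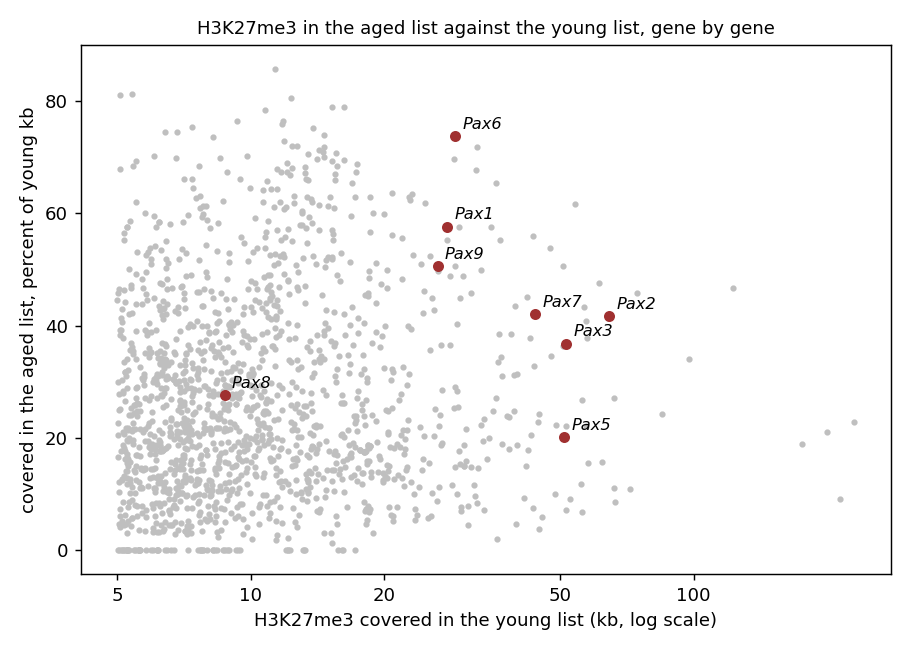
Each point is a protein-coding gene with at least 5 kb of H3K27me3 in the Young list: the horizontal axis is its Young coverage in kb on a log scale and the vertical axis its Aged coverage as a percentage of that. The 8 PAX genes in the selection are red and named; Pax6 lies near the top at 73.7% and Pax5 among the bulk of genes at 20.1%.

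The widest Young H3K27me3 region of *Pax5* spanned 15676 bp (chr4:44694853-44710528), from 41 bp before the first start site across the first exons and introns, with a 3.88-fold enrichment over background and a −log10 q of 3.89. It enclosed all 3 protein-coding start sites. The Aged list held 12 separate regions inside it, which covered 36.5% of its length. The Aged list also placed 7 H2AK119ub1 regions there, covering 25.5%, and the Young list 3, covering 11.04%. Neither H3K4me3 list had a peak inside it.

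A gap of 376 bp (chr4:44710529-44710904) separated that region from the next Young region upstream. The RefSeq start of *Pax5*, 207 bp before the first GENCODE start, lay in this gap, as did 210 of the 250 printed bases. The gap held 20 CpG, at 0.89 of the number expected from its base composition, and no listed H3K4me3 peak. An Aged H3K27me3 region of 893 bp (chr4:44709911-44710803) covered 275 bp of the gap and all 3 start sites. It was the only Aged H3K27me3 region at a *Pax5* promoter, with a −log10 q of 1.80. In each of the other 7 members with an Aged promoter region of this mark, the highest −log10 q at a promoter lay between 2.15 (*Pax8*) and 3.15 (*Pax9*). At a minimum of 2 the Aged H3K27me3 promoter count was therefore 7, without *Pax5*.

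*Pax5* also has start sites inside the gene. When every annotated transcript was used, the gene had 7 start sites, of which 2 lay 6481 and 7074 bp after the first, beside 5730488B01Rik, a transcript of unsettled type on the opposite strand. Both internal sites had H3K27me3 and H2AK119ub1 regions within 1 kb at both ages and no H3K4me3 peak at either. The widest Young H2AK119ub1 region of the gene was there, 935 bp wide (chr4:44702126-44703060), 7427 to 8361 bp after the first start site, and it overlapped an Aged region. Counted over all transcripts, *Pax5* and *Pax6* joined the Young H2AK119ub1 promoter count, which was then 6 in place of 4. No share over all genes was taken with these added start sites. Of the other internal sites, that at 26672 bp had H3K27me3 at both ages and that at 64764 bp had no listed region of any mark.

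**Figure D3:**
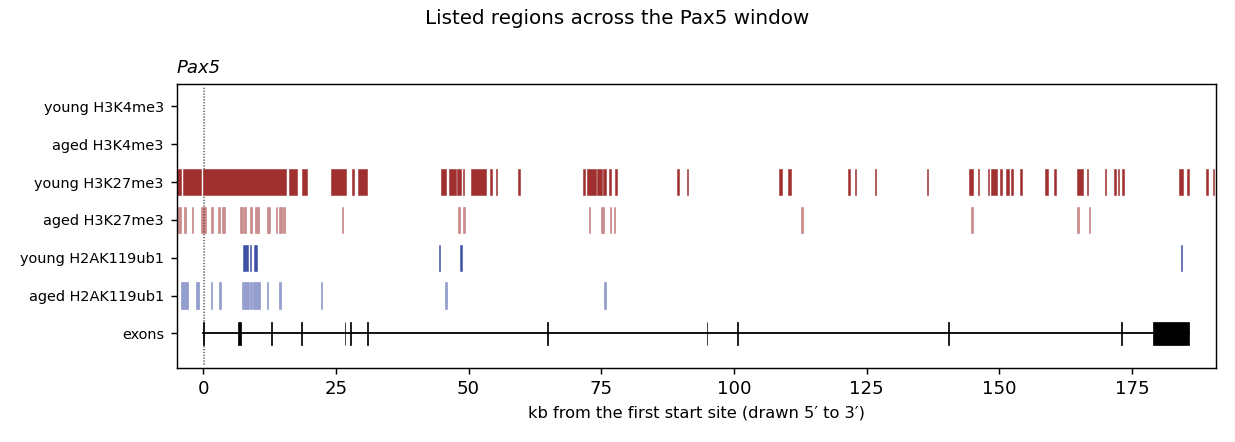
Regions of the 6 pooled lists across the Pax5 window, drawn 5′ to 3′ in kb from the first start site; solid colours are Young lists, pale colours Aged lists, black boxes exons and the dotted line the 3 protein-coding start sites. Young H3K27me3 is near-continuous over the first 15 kb and scattered beyond, Aged H3K27me3 is in short pieces, H2AK119ub1 lies mostly within 15 kb of the start, and both H3K4me3 rows are empty.

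Coverage of H2AK119ub1 was longer in the Aged list at 8 members, and with all listed regions the ratio was smallest at *Pax8* and next smallest at *Pax5*. At *Pax5* it was 2.74 kb in Young HSCs, the longest of the family, and 7.02 kb in Aged HSCs, rank 7 of the 9, a ratio of 2.56. At *Pax6* it went from 2.05 kb to 18.6 kb, a ratio of 9.10, and ranked 4 among all genes in the Aged list. *Pax1* went from 1.03 kb to 10.4 kb, *Pax2* from 1.47 kb to 11.6 kb, *Pax9* from 1.80 kb to 9.66 kb and *Pax7* from 1.48 kb to 8.78 kb. *Pax3* went from 2.51 kb to 8.77 kb and *Pax8* from 1.09 kb to 1.33 kb. *Pax4* had none at either age.

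The ratio over the other 8 members summed was 6.04, and over the whole lists it was 7.83. Held to the same number of regions at both ages, Aged coverage at *Pax5* was 45.8% of Young coverage, a change of direction, whereas over the other 8 it was still above the Young value, at 195.7%. With regions of a −log10 q of at least 2, Aged coverage was 1933% of Young coverage at *Pax5* and 910.4% over the other 8, so the order of *Pax5* and the other members was turned around. These percentages rest on a small Young base, 4.75 kb over all 9 windows. The highest Young −log10 q at *Pax5* was 2.13, just above the threshold. Both the direction at *Pax5* and its contrast with the other members therefore depended on which regions were kept.

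**Figure D4:**
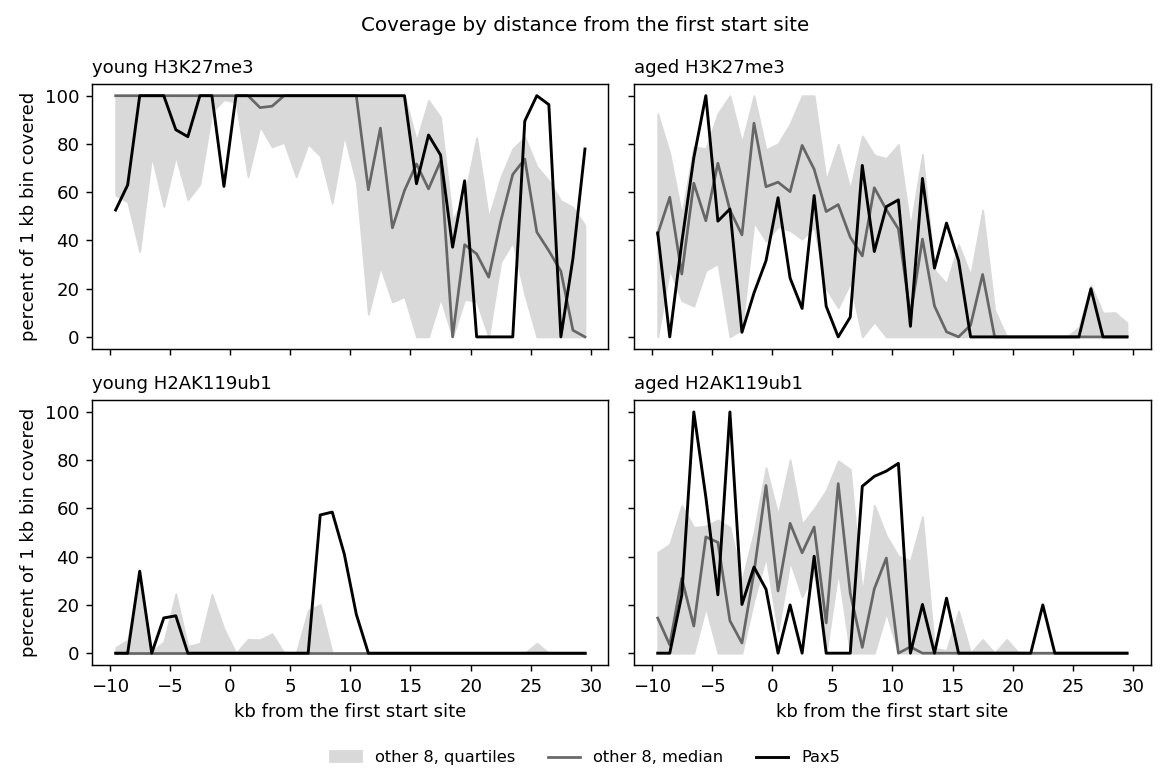
Percentage of each 1 kb bin covered by H3K27me3 (upper row) and H2AK119ub1 (lower row) from 10 kb before to 30 kb after the first start site, in the Young (left) and Aged (right) lists. The black line is Pax5, the grey line the median of the other 8 PAX genes and the band their quartiles; over the first 10 kb Young H3K27me3 covers all of Pax5 and Aged H3K27me3 covers 33.4%, where the median of the members' own means is 93.9% and 62.4%.

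The overlap of both Polycomb marks was measured base by base. Within Aged HSCs, 66.6% of the H2AK119ub1 length of the family lay inside H3K27me3 regions, against 26.4% over the whole list, and at *Pax5* 43.2% did. Across the ages, of the Aged H2AK119ub1 length in the 9 windows, 95.6% lay inside Young H3K27me3 regions, against 49.8% over the whole list. The value was 90.6% at *Pax5*, 85.7% at *Pax8* and between 92.6% and 100% at the other 6 members with the mark. Within Aged HSCs, 39.7% of the H3K27me3 length of the family also carried H2AK119ub1, against 19.8% over the whole list. This share was 65.2% at *Pax6*, 52.9% at *Pax1*, 49.9% at *Pax9* and 29.5% at *Pax5*. Within Young HSCs it was 4.33% for the family and 4.50% for *Pax5*.

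Aged H3K27me3 regions mostly fell where Young regions had been. Of the 160 Aged regions in the windows, 151 (94.4%) overlapped a Young region, against 66.0% of the whole Aged list. At *Pax5* 24 of 27 did, the lowest share of the 8 members, and at *Pax1*, *Pax8* and *Pax9* every region did. Of the 199 Young regions, 68 (34.2%) overlapped an Aged region, against 15.4% of the whole Young list. At *Pax5* this was 12 of 50 and at *Pax2* 24 of 39.

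The base composition of the H3K27me3 bases that both lists covered differed between members. Over the family, bases covered at both ages had a CpG content of 0.37 of that expected from base composition and bases covered in the Young list only had 0.30, close to the pair of values for the whole list (0.32 and 0.26). *Pax3* showed the widest difference in this direction, 0.41 against 0.28. At *Pax5* the values were 0.31 and 0.30. At *Pax1* and *Pax6* they ran the other way, with 0.30 against 0.34 and 0.42 against 0.51.

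The promoter window of *Pax4*, the member without Polycomb marks in Aged HSCs, was poor in CpG, with 11 CpG in 1 kb on either side of the first start site at 0.11 of the number expected. Of all protein-coding genes 7.81% were lower. *Pax8* followed with 0.26. *Pax5* had 0.50, near the median of all genes (0.48), and the other 6 members lay between 0.59 and 0.65. *Pax4* is also the shortest member, at 7.02 kb, so its length, its CpG content and its low coverage cannot be told apart.

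The 8 Young H3K4me3 peaks in the windows lay at the 3 bivalent members. *Pax2* had 3 peaks, *Pax3* 1 and *Pax6* 4, each between 200 and 381 bp wide and wholly inside a Young H3K27me3 region. The highest was the promoter peak of *Pax2*, 31 bp after the first start site (chr19:44756076-44756402), with a 5.10-fold enrichment and a −log10 q of 7.16. The fold and p-value together gave 23 reads at its summit over 3.70 expected, and 17 to 20 reads at the other 7 peaks. The median over the whole Young list was 20 reads, so the summit counts lay near that median. Enrichment was weaker at *Pax6*: all its peaks but 1 (chr2:105688210-105688529) were below the list medians of fold (4.04) and −log10 q (4.65). The peaks of *Pax2* and *Pax3* were above both medians.

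At *Pax3* the peak spanned the first start site (chr1:78197028-78197408, 4.25-fold, −log10 q of 4.78). At *Pax6* a peak spanned the first start site (chr2:105668768-105669079, 3.69-fold, −log10 q of 3.48) and covered 128 of the 250 printed bases. A second *Pax6* peak (chr2:105675597-105675830, 2.88-fold, −log10 q of 2.36) lay beside the cluster of start sites from 6291 to 7229 bp. No peak of the Aged list was nearer than 93.6 kb to any of the 8. Over the whole Young H3K4me3 list only 31.5% of peaks overlapped an Aged peak, so a Young peak without one was common. Each of the 8 overlapped an Aged H3K27me3 region, a count for which no share over all H3K4me3 peaks was taken.

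The widest Young H3K27me3 regions of the other members varied in position and in the share that Aged regions covered. The widest Young H3K27me3 region at *Pax2* spanned 25368 bp (chr19:44731570-44756937), most of it upstream of the gene, and the 12 Aged regions inside covered 58.6% of it. At *Pax9* the widest region spanned 23251 bp (chr12:56680266-56703516), across the antisense transcript Gm15524, both start sites and the first 11749 bp of the gene, and 15 Aged regions covered 69.2%. At *Pax6* it spanned 19818 bp (chr2:105657166-105676983) with all 8 protein-coding start sites, across the antisense transcript Pax6os1 and the long intergenic RNA Paupar, and 14 Aged regions covered 69.9%. The widest region of *Pax7* (13580 bp, chr4:139817838-139831417) lay over introns and coding exons, that of *Pax3* (12792 bp, chr1:78135660-78148451) inside an intron, both without a start site, and that of *Pax1* (9953 bp, chr2:147369400-147379352) lay 4406 bp after the start. At *Pax8* the widest region was 5884 bp (chr2:24470723-24476606) and at *Pax4* 1539 bp (chr6:28449420-28450958), the latter with no Aged region inside. Among the 9 widest regions the share covered by Aged regions was 36.5% at *Pax5*, 37.2% at *Pax3* and 40.9% at *Pax8*, and 58.6% or more at the 5 others that held any.

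**Figure D5:**
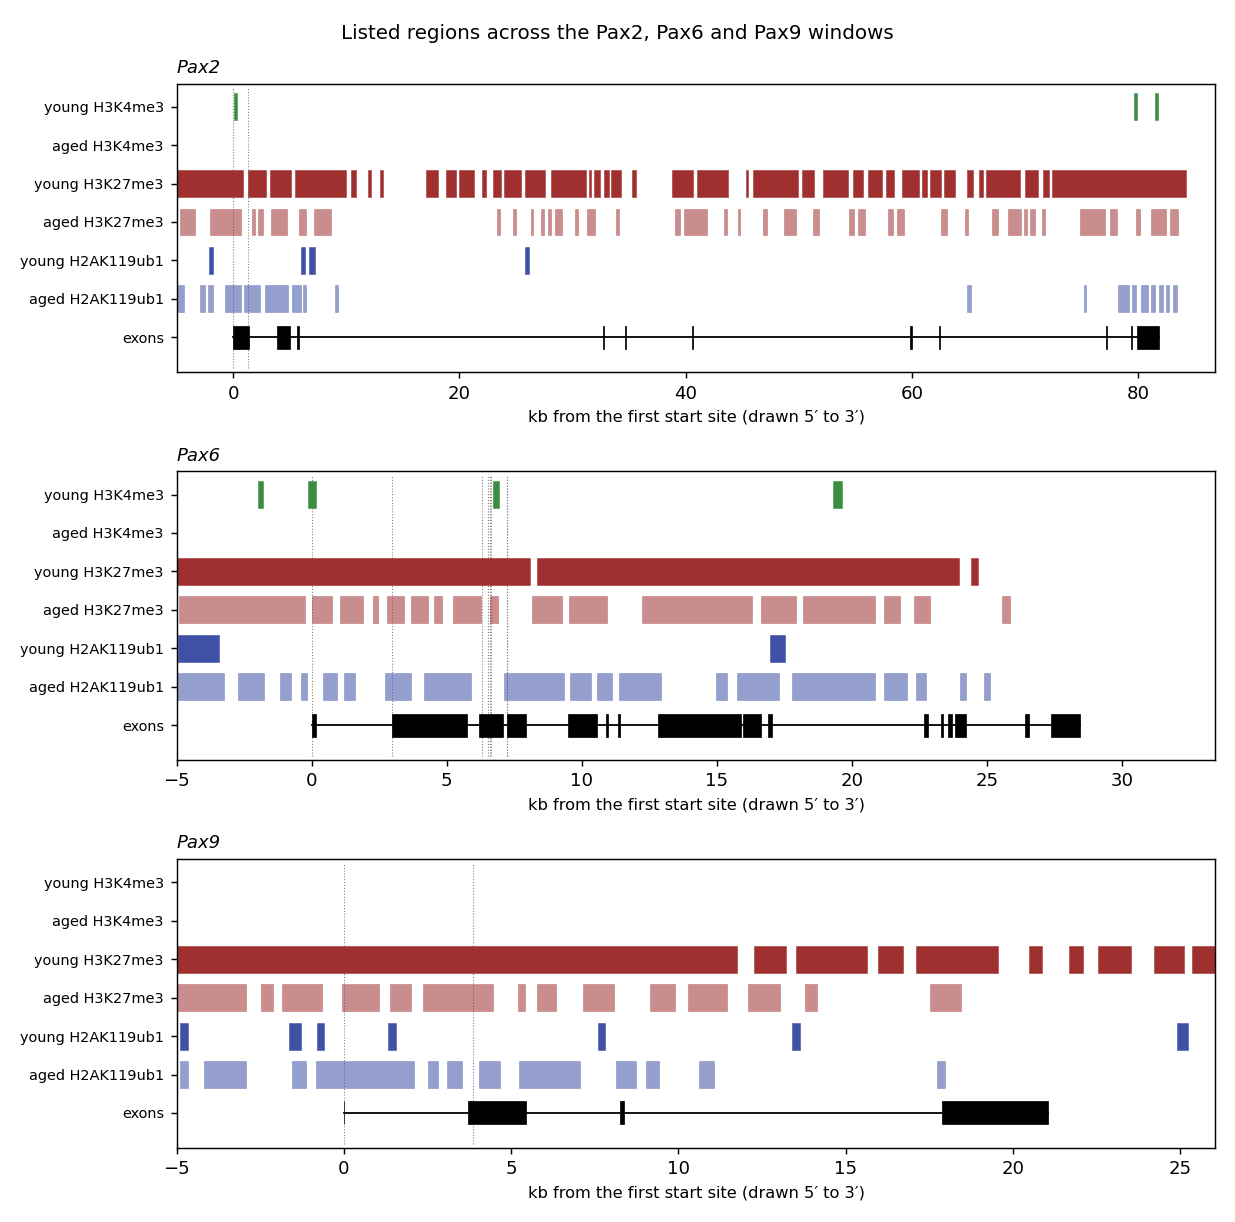
Regions of the 6 pooled lists across the Pax2, Pax6 and Pax9 windows, drawn as in the map of Pax5, each on its own kb scale; dotted lines are protein-coding start sites. Young H3K27me3 is near-continuous at Pax6 and Pax9, Aged regions of both Polycomb marks lie in pieces inside it, and Young H3K4me3 peaks (green) appear at Pax2 and Pax6 only.

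Several protein-coding neighbours carried none of the Polycomb signal. *Zcchc7*, 45390 bp upstream of *Pax5*, had promoter H3K4me3 at both ages and neither Polycomb mark. The same held for *Elp4*, whose 3′ end lies 3663 bp beyond *Pax6*, for *Psd4*, 5606 bp beyond *Pax8*, and for *Snd1*, 25786 bp before *Pax4*. Other nearest neighbours did carry promoter H3K27me3 at both ages. They were *Nkx2-2* and *Foxa2* on either side of *Pax1*, *Nkx2-9* upstream of *Pax9*, *Sgpp2* upstream of *Pax3* and *Cacna1b* upstream of *Pax8*. *Epha4*, downstream of *Pax3*, and *Klhdc7a*, upstream of *Pax7*, had it in the Young list only.

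The B-lineage genes around *Pax5* did not share its pattern as a group. Of 20 such genes, 3 (15%) had promoter H3K27me3 at each age, against 16% of all genes in the Young list and 8.24% in the Aged list. The Young count was thus near the share of all genes. The 3 were *Ebf1*, an activator of *Pax5*, *Ikzf3*, a zinc finger regulator of B cells, and *Lef1*, a Wnt effector in early B cells. Coverage of *Ebf1* by H3K27me3 was 17.5 kb in the Young list and 7.22 kb in the Aged list, with H3K4me3 at a promoter at both ages, unlike *Pax5*. *Ikzf3* had 8.87 kb and 3.22 kb, and no H3K4me3. Promoter H3K4me3 was listed for 6 of the 20 in Young HSCs (33.8% of all genes) and 4 in Aged HSCs (23.3%). H2AK119ub1 was listed for 0 (1.91% of all genes) and 4 (14%). *Cd79a*, a target of PAX5 and a subunit of the B cell receptor, had none of the 3 marks at a promoter, although H3K4me3 covered 0.731 kb of its window in Young HSCs and 0.417 kb in Aged HSCs.

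A second list held 22 genes that work with the other members in development, such as *Eya1*, *Nkx2-2* and *Wt1*. Promoter H3K27me3 was listed at 16 in the Young list (16% of all genes) and 12 in the Aged list (8.24%). H2AK119ub1 was at 7 (1.91% of all genes) and 12 (14%), and H3K4me3 at 9 (33.8%) and 5 (23.3%). *Wt1*, a kidney regulator, had the longest Young H3K27me3 coverage of these, 24.4 kb, against 10.3 kb in Aged HSCs, while *Eya1* and *Dach1* had H3K4me3 at both ages and no Polycomb coverage. Both companion lists are read against the same background shares as the family.

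The identity of the cells was checked against marker genes. Promoter H3K4me3 was listed at 7 of 10 HSC markers at each age, against 33.8% of all genes in the Young list and 23.3% in the Aged list. *Mecom*, *Hlf* and *Meis1* were among those with it at both ages. *Ly6a* and *Slamf1* had no promoter H3K4me3 at either age, *Kit* none in Young HSCs and *Gata2* none in Aged HSCs. Promoter H3K27me3 was listed at none of the 10. *Cd79b* was the only 1 of 6 B cell markers with H3K4me3 in Young HSCs, and none had it in Aged HSCs. Granulocyte and monocyte markers and T cell markers had none at either age, and erythroid markers 2 of 4 in Young HSCs and 0 of 4 in Aged HSCs. Non-blood markers had H3K4me3 at 0 of 4 and H3K27me3 at 2 of 4 at both ages. In sets this small, a count of 0 says little beside the shares of all genes. RNA was not measured in these libraries, so the lists carry no level of expression for any PAX gene.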

How the data were processed

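ChIP-seq peak lists were analysed, 1 pooled list for each of 3 marks and 2 ages. Per the labels, the authors aligned reads to mm10 with Bowtie2 and used MACS2 2.2.6. The deposited lists give each peak's fold enrichment over background (a linear ratio), the −log10 p-value and the −log10 q-value, and, for the narrow H3K4me3 peaks, the summit position. Values of the broad lists are averages over a region. Peak names of the broad lists carry 1 library number, so it is not certain that both libraries entered them. Total read depth is unknown. Duplicates and multiply mapped reads could change which peaks are listed.

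Peaks outside chromosomes 1 to 19, X and Y were set aside, and the rest were overlapped, by at least 1 bp, with GENCODE M21 genes (basic set, 41438 start sites) in Python 3.11.15 with numpy 2.4.6, and bases were read with pysam 0.24.0. Overlap code was tested on simulated intervals. Reads at H3K4me3 summits were solved from fold and p-value (scipy 1.17.1), which gave whole reads within 0.01 log10 units for 100% of peaks. Background shares cover all 21851 genes. All 9 members were described; in each list the widest region, or the H3K4me3 peak of highest −log10 q, was named. The members and companion lists were chosen with earlier results of these data known.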

Additional observations from a re-analysis of the deposited data

How the results depend on the processing

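No paired analysis was possible because a single pooled list stood for the libraries of a mark at an age, and for the same reason no library could be left out. Of 128 recomputed values for 24 results, most stayed within 1.5 times the value reported. The settings were applied to the members only, so no recomputed count has a share of all genes beside it. The comparisons of Pax5 with the other 8 members under these settings were chosen after seeing the data. Causes of the changes below were not tested beyond what each setting removes.

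A −log10 q of at least 4 removed every region of the Aged H3K27me3 list and of both H2AK119ub1 lists from the PAX windows. Counts, covered kb and shared regions that rest on those lists were then 0, as were Aged H3K27me3 percentages of Pax5 and of the other 8. Young H3K27me3 fell from 305.7 to 80.1 kb, Young H3K4me3 from 2.203 to 1.46 kb and Young bivalent members from 3 to 1. In the whole Aged H3K27me3 list only 39 regions reached that threshold.

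A −log10 q of at least 2 gave 82.8 kb of Aged H3K27me3, 4.75 kb of Young and 45.8 kb of Aged H2AK119ub1, and 5 members with Aged promoter H2AK119ub1. Shared H3K27me3 regions were 36 (Young) and 67 (Aged), and shared H2AK119ub1 regions 4 and 3. Aged H3K27me3 at Pax5 was 9.66% of Young, and Aged H2AK119ub1 was 1933% at Pax5 and 910.4% over the other 8, which put Pax5 above them in place of below. The highest Young H2AK119ub1 −log10 q at Pax5 was 2.13, so little of its Young coverage remained.

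With the same number of peaks at both ages, Young H3K4me3 covered 1.46 kb and Aged H2AK119ub1 23.6 kb. Promoter H2AK119ub1 was then listed for 3 members in the Aged list and 4 in the Young list, which reversed the order seen with all regions. Shared H2AK119ub1 regions were 8 (Young) and 6 (Aged). Aged H3K27me3 at Pax5 was 32.2% of Young. Aged H2AK119ub1 at Pax5 was 45.8% of Young, which reversed its direction, and 195.7% over the other 8.

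A promoter of 500 bp on either side left 1 member (Pax8) with Young H2AK119ub1, and 6 members, without Pax5, with Aged H2AK119ub1. Requiring overlap of at least 50% of a region left 27 shared Young H3K27me3 regions and 9 shared Aged H2AK119ub1 regions. A promoter of 2.5 kb, start sites of all transcripts, overlap of at least 200 bp, the gene body alone and joined peaks moved none of the results they were applied to by more than 1.5 times.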
